A study of Mus musculus with 10 samples.

Results

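The genes of extracellular nucleotide breakdown and adenosine on the panel were *Entpd1*, *Nt5e*, *Adora2a*, *Ada*, *Dpp4* and *Cd38*. They were chosen by name, and all 6 were found among the 770 gene probes of the mouse PanCancer Immune Profiling panel, in which colour-coded probes are counted on RNA without amplification. The RNA, 100 ng a sample, came from 10 tumors of YUMMER1.7, a mouse melanoma line carrying the Braf V600E mutation. In each case 400000 cells had been injected under the skin of male C57BL/6 mice. The legend of the tumor growth experiment gives their age as 5 to 7 weeks, whereas the study's reporting summary gives 6 to 10 weeks. Of these tumors 5 grew in WT mice (replicates 2, 3, 4, 5 and 6) and 5 in Siah2 KO mice (replicates 1, 2, 3, 5 and 6). The knockout is Siah2-/- throughout the host, whereas the same line was injected in both groups, so that the tumor cells were not made Siah2 deficient. The sample labels give day 11 for collection, whereas a figure legend gives day 10. The panel has no probe for *Siah2*, the E3 ubiquitin ligase removed in the KO mice, so the genotype could not be checked in these values.

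ATP that leaves stressed or dying cells is a danger signal for immune cells. CD39, encoded by *Entpd1*, cuts ATP and ADP to AMP, and CD73, encoded by *Nt5e*, cuts AMP to adenosine. Adenosine binds receptors such as that encoded by *Adora2a*, which raises cyclic AMP in T cells, NK cells and myeloid cells and restrains them. ADA, the deaminase encoded by *Ada*, turns adenosine into inosine, and DPP4 (CD26) is a surface peptidase that anchors ADA on human T cells and trims the ends of several chemokines. CD38 consumes NAD and opens another route towards AMP and adenosine.

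*Entpd1* was the member that was higher in Siah2 KO tumors, by 1.93-fold, while *Nt5e*, *Adora2a*, *Ada*, *Dpp4* and *Cd38* did not pass the threshold of an adjusted p of 0.05 by limma. Among all 770 probes 41.0% passed this threshold, 31.3% as higher in Siah2 KO tumors and 9.74% as lower, so that 1 of 6 members passing was below the share of the whole panel. Without adjustment 2 members, *Entpd1* and *Cd38*, were under 0.05, as were 384 of the 770 probes. The median log2 fold change of the 6 members was 0.33, beside 0.24 over all probes, which shows that the small positive differences of most members lay near the shift of the panel as a whole. Values are normalized counts, that is, probe counts after background subtraction and scaling to 20 reference genes. Fold changes are Siah2 KO minus WT on log2(value + 1), which understates changes of dim probes. The labels do not say whether the mice shared litters or runs, so the p-values measure the spread between these tumors.

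In general the 2 groups differed in many immune genes. Of 8 general leukocyte genes 7 were higher in Siah2 KO tumors, with a median log2 fold change of 0.54, and their summed level was from 4643 to 5710 normalized counts in WT tumors, against 6860 to 10324 in the Siah2 KO group. T cell genes (8 of 11 higher), NK cell genes (5 of 6) and neutrophil genes (4 of 6) rose as well, whereas 5 of 6 fibroblast genes and 2 of 3 melanocytic genes fell. The melanocytic summed level was from 438 to 594 in WT tumors, against 224 to 405 in the Siah2 KO group. Of these genes *S100b* had few counts, with a mean of 14.6 in WT tumors and 1.72, near the floor, in Siah2 KO tumors. *Cspg4* was lower (−0.87, limma adjusted p = 0.0089), and *Mcam* did not pass (−0.17, adjusted p = 0.36). Because whole tumors were measured, fewer cells of a type and less RNA per cell cannot be told apart. Scaling of the tumors moved the picture: with tumors brought to a common median, 163 probes were higher and 152 lower, against 241 and 75 with the deposited scaling, and the median of all probes moved by −0.25 on the log2 scale. The list counts depended on it too. Of the 8 leukocyte genes 4 were higher with a common median, 3 after quantile normalization and 2 with scaling to the positive control probes. Under this last scaling 1 of 11 T cell, 2 of 6 NK cell and 3 of 6 neutrophil genes were higher, and 2 of 6 fibroblast and 2 of 3 melanocytic genes were lower.

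**Figure D1:**
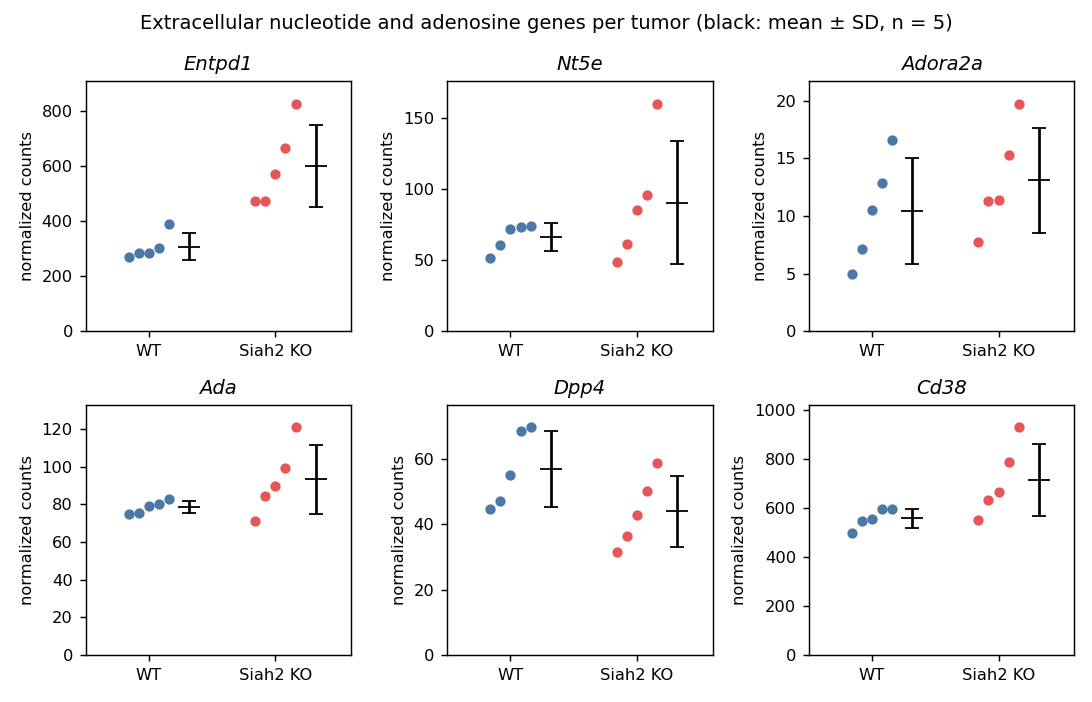
Normalized counts (vertical axis, from 0) of each of the 6 genes in the 5 WT and 5 Siah2 KO tumors, one point per tumor, sorted by value within a group, with mean ± SD in black. The 5 Siah2 KO tumors lie above the 5 WT tumors for *Entpd1*, with no overlap, and the groups overlap for the other 5 genes.

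*Entpd1*, the first enzyme of the cascade, is carried by regulatory T cells, exhausted T cells, macrophages and endothelium. Its normalized counts were 283, 268, 286, 390 and 303 in WT tumors 2, 3, 4, 5 and 6. In Siah2 KO tumors 1, 2, 3, 5 and 6 they were 569, 473, 664, 826 and 473. The lowest Siah2 KO tumors, 2 and 6, stood above the highest WT tumor, 5. The means were 306 ± 48.7 in WT and 601 ± 148 in Siah2 KO tumors (SD, n = 5), a log2 fold change of 0.95 (SE 0.17, 95% confidence interval 0.57 to 1.34, limma adjusted p = 0.0019). The exact permutation p was 0.0079, the smallest that 5 against 5 tumors allow. Groups did not overlap for 31.6% of all probes, and *Entpd1* ranked 94 from the top of the 770 by log2 fold change. With scaling to the positive control probes in place of the reference genes the log2 fold change was 0.79, and the adjusted p was 0.14.

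The genes of cells known to carry CD39 did not all move alike. Of 9 regulatory T cell genes 1 was higher and 2 lower. *Foxp3*, their defining transcription factor, fell from 56.7 ± 15.8 in WT to 29.5 ± 9.97 in Siah2 KO tumors (−0.92 on the log2 scale, limma adjusted p = 0.018). The chemokine receptor *Ccr4* fell as well, but at few counts, with means of 9.81 in WT and 2.77 in Siah2 KO tumors. The brightest negative control probe of a tumor was between 2.31 and 15.8 on the same scale. *Icos*, which other activated T cells also express, was higher (0.77, adjusted p = 0.025). The summed level of the 9 genes was from 695 to 1181 in WT tumors, against 779 to 1417 in the Siah2 KO group. Its largest parts in both groups were *Il2ra* and *Icos*. *Il2ra* encodes CD25, by which the paper gated regulatory T cells and which activated T cells also carry. It had a log2 fold change of 0.54 (limma adjusted p = 0.087).

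T cell genes in general, 8 of 11 of which were higher, had summed levels that did not overlap, from 659 to 857 in WT tumors, against 912 to 1615 in the Siah2 KO group. Of 10 macrophage genes 2 were higher and 2 lower, from 16271 to 19728 summed counts in WT tumors, against 18280 to 26974 in the Siah2 KO group. Of 8 endothelial genes 1 was higher and 2 lower, from 3520 to 4005 in WT tumors, against 3494 to 4345 in the Siah2 KO group. With a common median or after quantile normalization 6 of the 8 endothelial genes were lower. Values were also taken relative to the median of the leukocyte genes of the same tumor. On that scale 6 of 9 regulatory T cell, 6 of 10 macrophage and 6 of 8 endothelial genes were lower. So were 34.0% of all 770 probes, while 10.1% were higher, among them 2 macrophage genes and no regulatory T cell or endothelial gene. The part of any of these cells in the *Entpd1* difference was not tested.

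The promoters of *Entpd1* are shown since it was the member that rose. They are the 250 bases before each of the 2 starts listed by RefSeq (build GRCm38.p6, forward strand), chr19:40612116-40612365 and chr19:40659520-40659769. Capitals mark matches on either strand to a cyclic AMP response half-site (TGACG, read as CGTCA on the other strand), the core of the hypoxia response element (ACGTG or GCGTG) and the CCAAT box, read as ATTGG on the other strand.
Entpd1 start 1: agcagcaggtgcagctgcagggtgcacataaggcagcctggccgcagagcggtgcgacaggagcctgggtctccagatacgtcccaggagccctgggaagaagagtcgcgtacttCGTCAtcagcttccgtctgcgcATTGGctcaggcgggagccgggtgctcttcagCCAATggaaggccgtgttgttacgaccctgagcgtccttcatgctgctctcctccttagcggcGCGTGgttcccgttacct
Entpd1 start 2: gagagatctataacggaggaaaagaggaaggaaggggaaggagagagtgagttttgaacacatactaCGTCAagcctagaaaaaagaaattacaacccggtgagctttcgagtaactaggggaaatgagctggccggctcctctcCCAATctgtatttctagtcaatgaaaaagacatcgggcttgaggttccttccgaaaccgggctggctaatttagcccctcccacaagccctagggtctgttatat
Both windows hold the half-site, at −135 and −183 from the start, and at least 1 CCAAT box, whereas the hypoxia core was in the first window alone, at −18. Neither holds the whole cyclic AMP response element TGACGTCA. Of 32851 promoter windows of the same length in the table, 17.8% hold the half-site, 1.55% the whole element, 38.6% a hypoxia core and 33.8% a CCAAT box. The half-site is contained in the whole element. Among the other members with an entry, the *Nt5e* window holds a hypoxia core at −138 and the *Ada* window a CCAAT box at −167 and an interferon-type TTCNNNGAA motif at −90, which 7.02% of all windows hold, while the *Dpp4* and *Cd38* windows hold none of the motifs searched. These matches are letters in a window and describe no binding.

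*Nt5e* encodes CD73, which completes the step from AMP to adenosine and is found on lymphocytes, endothelium and stromal cells. WT tumors 2, 3, 4, 5 and 6 had normalized counts of 74.1, 60.8, 73.8, 72.3 and 52.0. Siah2 KO tumors 1, 2, 3, 5 and 6 had 96.3, 61.7, 160, 85.3 and 49.0. Siah2 KO tumors 1, 3 and 5 were above every WT tumor, tumor 2 was within the WT range and tumor 6 was below it. A log2 fold change of 0.33 was obtained (SE 0.28, 95% confidence interval −0.29 to 0.96, limma adjusted p = 0.37, exact permutation p = 0.33). This interval includes both a fall and a rise close to that of *Entpd1*. Siah2 KO tumor 3 carried much of the difference, as the log2 fold change was 0.097 without it. Fibroblast genes, whose cells can carry CD73, had a summed level from 30096 to 39860 in WT tumors, against 18256 to 22966 in the Siah2 KO group, and their part in the *Nt5e* level was not tested.

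The balance between the enzymes was compared as a log2 ratio within each tumor, which no scaling factor changes apart from the pseudocount. The *Entpd1* to *Nt5e* log2 ratio was 1.92, 2.12, 1.94, 2.42 and 2.52 in WT tumors 2, 3, 4, 5 and 6. In Siah2 KO tumors 1, 2, 3, 5 and 6 it was 2.55, 2.92, 2.04, 3.26 and 3.25. Thus the ratio of Siah2 KO tumors 1, 2, 5 and 6 exceeded that of each WT tumor, and tumor 3, which had the highest *Nt5e* level, was within the WT range. The means were 2.18 ± 0.27 and 2.80 ± 0.51, a difference of 0.62 or 1.54-fold (two-sided exact permutation p = 0.048, adjusted p = 0.095 over the 2 ratios). Without Siah2 KO tumor 3 the difference was 0.81 with an adjusted exact p of 0.032. Since probes differ in efficiency, only the difference of the ratio between groups, not its level, has a meaning.

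**Figure D2:**
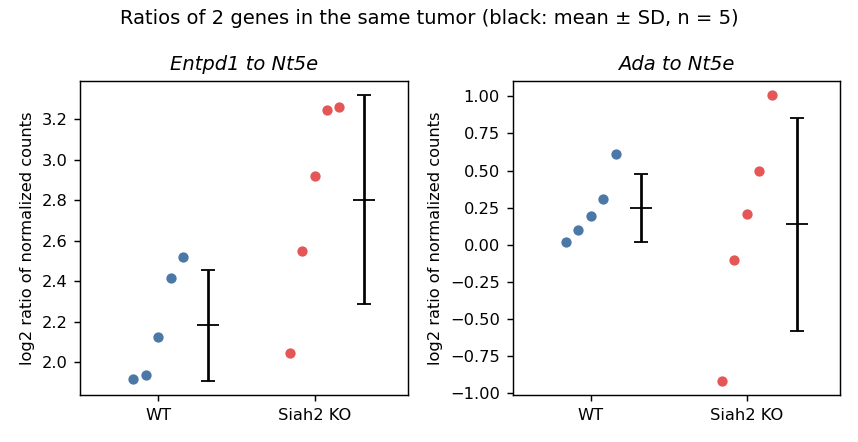
The log2 ratios of *Entpd1* to *Nt5e* and of *Ada* to *Nt5e* in each tumor (points) with mean ± SD (black) for 5 WT and 5 Siah2 KO tumors. For the first ratio 4 of 5 Siah2 KO tumors exceed all WT tumors, and for the second the WT range lies inside the Siah2 KO range.

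*Adora2a*, the adenosine receptor on the panel, was the dimmest member. Its normalized counts were 16.6, 7.18, 4.93, 12.9 and 10.5 in WT tumors 2, 3, 4, 5 and 6. The Siah2 KO tumors, in the order 1, 2, 3, 5 and 6, had 19.8, 15.3, 11.4, 11.4 and 7.77. The groups overlapped over most of their range. The log2 fold change was 0.35 (SE 0.32, 95% confidence interval −0.36 to 1.06, limma adjusted p = 0.41, exact permutation p = 0.35), and it was −0.018 when only the 8 tumors with a number shared between the groups were compared. In Siah2 KO tumors 5 and 6 the value was under that of the brightest negative control probe on the same scale, 15.8 and 9.83. The other 5 members were above it in 10 of 10 tumors. Within this interval no difference in *Adora2a* was detectable at these counts.

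*Ada* removes adenosine and is high in lymphocytes. Normalized counts of *Ada* were 75.1, 75.4, 79.3, 82.8 and 79.9 in WT tumors 2, 3, 4, 5 and 6. Counts of Siah2 KO tumors 1, 2, 3, 5 and 6 were 89.7, 71.3, 84.6, 121 and 99.5. The WT tumors were nearly alike, with a coefficient of variation of 4.18%, whereas the Siah2 KO tumors varied by 19.8%, with tumors 1, 3, 5 and 6 above every WT tumor and tumor 2 below. The log2 fold change of 0.22 (SE 0.13, 95% confidence interval −0.067 to 0.51, limma adjusted p = 0.20, exact permutation p = 0.10) became −0.040 when tumors were brought to a common median and −0.14 after quantile normalization. The *Ada* to *Nt5e* log2 ratio, which sets removal against formation of adenosine, averaged 0.25 ± 0.23 in WT and 0.14 ± 0.72 in Siah2 KO tumors (exact permutation p = 0.75). Its direction rested on Siah2 KO tumor 3, without which the difference of −0.11 was 0.16.

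*Dpp4* was the member with a negative log2 fold change. Its normalized counts were 55.0, 69.5, 47.1, 44.6 and 68.3 in WT tumors 2, 3, 4, 5 and 6. Among Siah2 KO tumors 1, 2, 3, 5 and 6 the counts were 36.4, 31.3, 42.9, 58.7 and 50.0. Siah2 KO tumors 1, 2 and 3 were below every WT tumor, and tumors 5 and 6 were within the WT range. Siah2 KO minus WT was −0.38 on the log2 scale (SE 0.19, 95% confidence interval −0.81 to 0.051, limma adjusted p = 0.14, exact permutation p = 0.11). It was −0.64 with an adjusted p of 0.018 when tumors were brought to a common median, and −0.63 with an adjusted p of 0.032 after quantile normalization. By log2 fold change *Dpp4* ranked 87 from the bottom of 770 probes with the deposited scaling.

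*Cd38*, the NAD-consuming ectoenzyme, is expressed by activated lymphocytes, plasma cells and myeloid cells. Normalized counts of *Cd38* were 546, 555, 499, 595 and 597 in WT tumors 2, 3, 4, 5 and 6. Those of Siah2 KO tumors 1, 2, 3, 5 and 6 were 787, 635, 667, 930 and 552. Siah2 KO tumors 1, 2, 3 and 5 exceeded each WT tumor, with tumor 6 inside the WT range. The means were 558 ± 40.1 and 714 ± 148 (SD, n = 5), a log2 fold change of 0.33 (SE 0.14, 95% confidence interval 0.024 to 0.64). The limma p of 0.037 became 0.080 after adjustment, and the exact permutation p was 0.040. Without Siah2 KO tumor 6 the log2 fold change was 0.42 with an adjusted p of 0.024, and after quantile normalization of all tumors it was −0.086. T cell genes had from 659 to 857 summed counts in WT tumors, against 912 to 1615 in the Siah2 KO group. Taken singly, 4 of these 11 genes had groups that did not overlap. The B cell genes *Ms4a1*, *Cd79a*, *Pax5* and *Blk* had group means between 1.06 and 2.58, near the floor. The part of T cells in the *Cd38* values was not tested.

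The Siah2 KO tumors were the more variable group for 5 of 6 members, as they were for 427 of 602 probes averaging 20 normalized counts or more (70.9%). Siah2 KO tumor 5, which had the largest sum of normalized counts over all probes, 741789, was the highest of its group for 4 members. Tumors 2 and 6 were the lowest of theirs for 3 members each.

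Since leukocyte genes differed between the groups, each member was also expressed relative to the median of the 8 leukocyte genes of the same tumor, on the log2 scale. On this scale *Entpd1* rose and *Dpp4* fell, and the other 4 members did not pass the threshold. Here 44.2% of all probes passed, 10.1% as higher and 34.0% as lower, and the median of all probes was −0.32. The median of the 6 members was −0.22, again near that of the panel.

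Relative to the leukocyte genes, *Entpd1* was −0.72, −0.86, −0.51, −0.47 and −0.83 in WT tumors 2, 3, 4, 5 and 6. In Siah2 KO tumors 1, 2, 3, 5 and 6 it was −0.24, −0.40, −0.18, −0.20 and −0.37. The Siah2 KO tumors were all above the WT tumors, by 0.40 on average (SE 0.12, 95% confidence interval 0.14 to 0.65, limma adjusted p = 0.018, exact permutation p = 0.0079). The difference was therefore smaller than on the reference gene scale, 0.95, but was still larger than the spread between tumors. Without WT tumor 3 it was 0.35 with an adjusted p of 0.051.

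*Dpp4* relative to the leukocyte genes was −3.06, −2.79, −3.09, −3.57 and −2.96 in WT tumors 2, 3, 4, 5 and 6. In Siah2 KO tumors 1, 2, 3, 5 and 6 it was −4.17, −4.28, −4.10, −4.00 and −3.59. The highest Siah2 KO tumor, 6, and the lowest WT tumor, 5, nearly met. On the reference gene scale the difference was −0.38 and did not pass (limma adjusted p = 0.14). Relative to the leukocyte genes, which were themselves higher in Siah2 KO tumors, it was −0.93 (SE 0.17, 95% confidence interval −1.32 to −0.55, limma adjusted p = 0.0021, exact permutation p = 0.0079). When any 1 tumor was left out it was between −1.05 and −0.86, with adjusted p at most 0.0066. *Ada* (−0.33, adjusted p = 0.064), *Cd38* (−0.22, adjusted p = 0.12), *Nt5e* (−0.22, adjusted p = 0.53) and *Adora2a* (−0.21, adjusted p = 0.61) had negative values on this scale that did not pass.

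**Figure D3:**
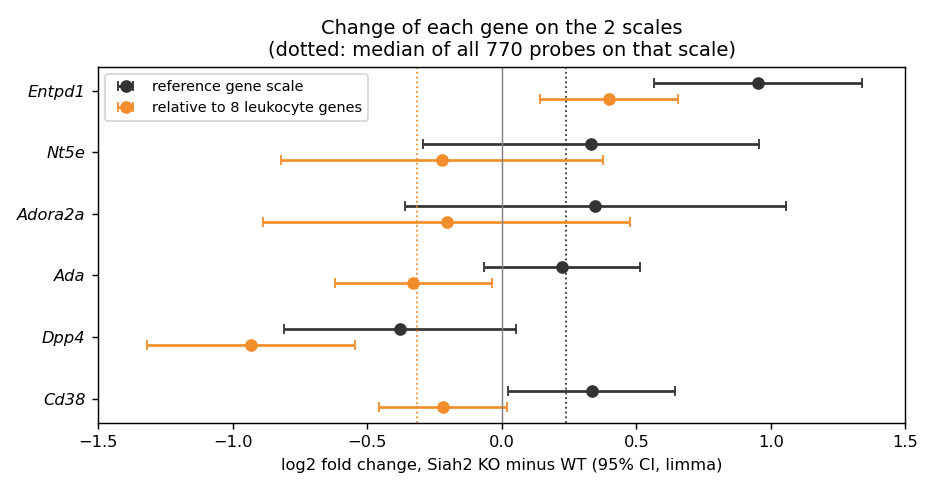
The log2 fold change of each member (Siah2 KO minus WT, horizontal axis) with its 95% confidence interval by limma, on the reference gene scale (black) and relative to the 8 leukocyte genes (orange), with dotted lines at the median of all 770 probes on each scale. *Entpd1* is above 0 on both scales (0.95 and 0.40), and the interval of *Dpp4* leaves out 0 only relative to leukocyte genes (−0.93).

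The genes around the pathway were taken from lists. *Bst1* (CD157), the paralog of *Cd38* with related activity on NAD, is its neighbour on chromosome 5 with 0 protein-coding genes between them in GRCm38.p6. Its normalized counts were 94.2, 118, 98.5, 148 and 117 in WT tumors 2, 3, 4, 5 and 6. For Siah2 KO tumors 1, 2, 3, 5 and 6 they were 385, 380, 669, 682 and 254. No WT tumor reached the lowest Siah2 KO tumor, 6, and the means of 115 ± 21.1 and 474 ± 191 differed by 1.95 on the log2 scale (SE 0.27, limma adjusted p = 0.00057). This difference was far above that of *Cd38*, 0.33, and remained at 1.40 relative to the leukocyte genes (adjusted p = 0.00037). *Bst1* is also known on neutrophils and other myeloid cells, and 4 of 6 neutrophil genes were higher, with a summed level from 371 to 439 in WT tumors, against 778 to 1485 in the Siah2 KO group. The part of these cells in the *Bst1* difference was not tested.

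Of the genes for an inflammasome that extracellular ATP can set off, and for its cytokines, 4 of 5 were higher in Siah2 KO tumors. None of them encodes a receptor for ATP. *Il1b*, the cytokine that the inflammasome releases, had a log2 fold change of 1.51 (290 ± 66.8 in WT and 824 ± 183 in Siah2 KO tumors, limma adjusted p = 0.00057). The sensor *Nlrp3* (1.10), the adaptor *Pycard* (0.83) and the protease *Casp1* (0.59) were higher too, with adjusted p of 0.0014, 0.0049 and 0.0022, while *Il18*, the other cytokine, had 0.26 (adjusted p = 0.13). With positive control scaling *Il1b* alone of these passed. Relative to the leukocyte genes 2 of 5 were higher and none was lower.

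Hypoxia is known to induce CD39, CD73 and adenosine receptors, and 2 of 3 genes in the hypoxia list were higher. Oxygen was not measured, and RNA of *Hif1a* and *Vhl* does not report the level of HIF1A protein. *Hif1a*, the oxygen-regulated transcription factor, was higher by 0.63 (adjusted p = 0.0018) and its target *Vegfa* by 0.68 (adjusted p = 0.0053), while *Vhl*, which marks HIF1A for degradation, had 0.041 (adjusted p = 0.74). *Vegfa* did not pass when tumors were brought to a common median (0.41, adjusted p = 0.058) or after quantile normalization (0.32, adjusted p = 0.11), and neither gene passed with positive control scaling. Relative to the leukocyte genes 0 of 3 were higher and 1 was lower.

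Of 6 genes for factors that bind the cyclic AMP response element, or for their coactivators, 1 was higher. Their RNA is no measure of cyclic AMP, the messenger raised by the adenosine receptor. *Creb5* was 89.6 ± 8.48 in WT and 165 ± 11.5 in Siah2 KO tumors, a log2 fold change of 0.88 (limma adjusted p = 0.00018). It was 0.71 with an adjusted p of 0.16 under positive control scaling. *Creb1*, *Atf1*, *Atf2* and the coactivators *Crebbp* and *Ep300* had log2 fold changes between −0.035 and 0.24, and none passed with the deposited scaling. *Crebbp* and *Ep300* were lower with a common median (−0.30 and −0.27, adjusted p = 0.014 and 0.021), and after quantile normalization these and *Creb1* were lower. Relative to the leukocyte genes 0 of 6 were higher and 4 were lower, and *Creb5* had 0.32 (adjusted p = 0.096).

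The chemokines that DPP4 is known to trim did not all move in 1 direction. Of 7 measured, 5 were higher in Siah2 KO tumors, namely *Ccl11* (1.72), *Ccl5* (1.02), *Cxcl12* (0.87), *Cxcl9* (0.79) and *Cxcl11* (0.69), with adjusted p between 0.00094 and 0.041. *Ccl22*, which attracts regulatory T cells, was lower, at 174 ± 44.0 in WT and 70.7 ± 31.4 in Siah2 KO tumors (−1.37, adjusted p = 0.0063), and *Cxcl10* had 0.58 (adjusted p = 0.13). *Cxcl9* and *Cxcl11* did not pass when tumors were brought to a common median, after quantile normalization or under positive control scaling, and under the last only *Ccl11* was higher. Against the leukocyte genes of each tumor, *Ccl11* (1.17) and *Ccl5* (0.47) were higher, *Ccl22* (−1.93) was lower and the others did not pass. RNA levels say nothing of trimming, which acts on the protein.

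**Figure D4:**
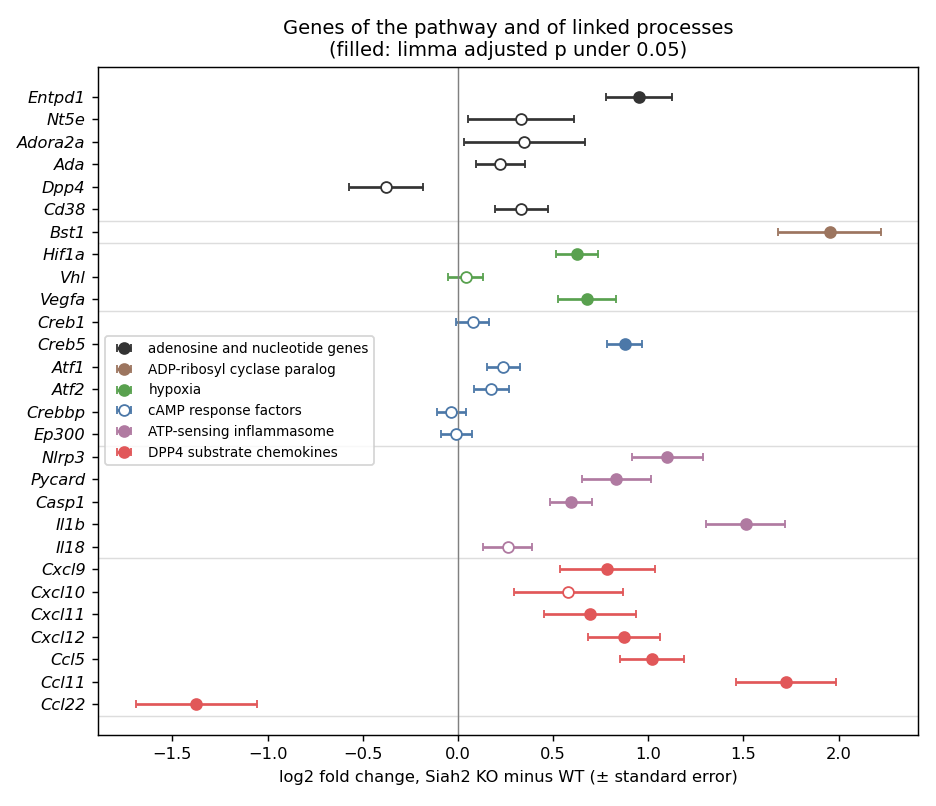
The log2 fold change (Siah2 KO minus WT, horizontal axis) ± SE of the 6 members and of 22 genes of linked lists, coloured by list, with filled points at a limma adjusted p under 0.05. *Entpd1* is the filled point among the members, *Bst1* has the highest value (1.95) and *Ccl22* the lowest (−1.37).

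Likeness was described as the correlation of log2 values after the mean of each group was taken off, across 10 tumors and 582 endogenous genes averaging 20 normalized counts or more. The tumors share their scaling factor in every gene, so these values are given with no test. Closest to *Entpd1* were *Muc1*, a mucin (Pearson r = 0.97), *Eomes*, a T and NK cell transcription factor (0.96), and *Selplg*, a leukocyte selectin ligand that is also in the leukocyte list (0.96). Closest to *Cd38* were the T cell receptor chains *Cd3d* (0.94) and *Cd247* (0.91) and the checkpoint receptor *Tigit* (0.90).

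The other members had neighbours of other kinds. For *Nt5e* these were *S100a8*, *Il18rap* and *Ifng* (0.90 to 0.91), where the Spearman rho of *S100a8* was 0.64, and for *Ada* they were *Kdr*, *Mapk14* and *Il12b* (0.85 to 0.89). For *Dpp4* they were *Tlr9*, *Il10ra* and *Rel* (0.78 to 0.83), and for *Adora2a*, with its few counts, *Lag3*, *Klra4* and *Cxcr3* (0.74 to 0.82). Among the members themselves, *Entpd1* and *Cd38* varied most alike (0.77), followed by *Entpd1* and *Ada* (0.64) and *Ada* and *Dpp4* (0.63). *Entpd1* and *Nt5e*, which act in sequence, had a correlation of 0.53.

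**Figure D5:**
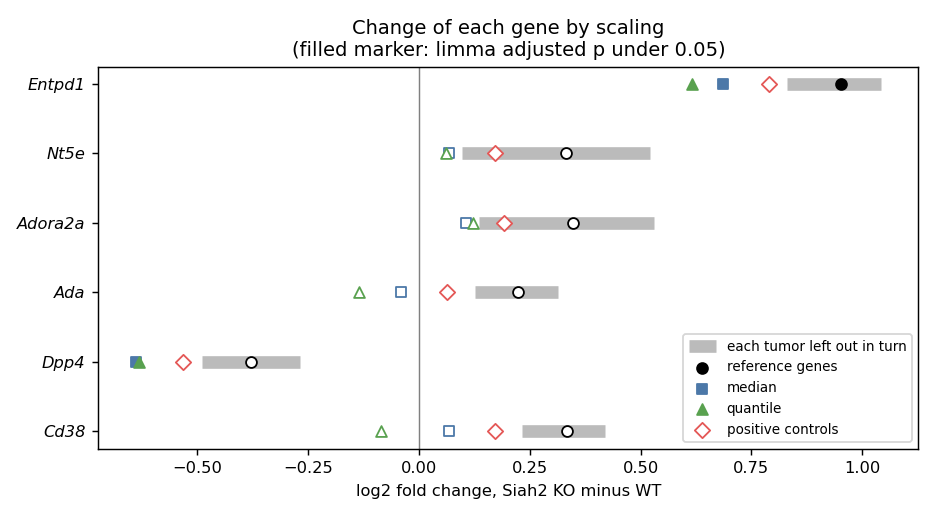
The log2 fold change of each member (Siah2 KO minus WT) under 4 ways of scaling the tumors, with filled points at a limma adjusted p under 0.05. *Entpd1* stays above 0 in each, from 0.61 to 0.95, and *Dpp4* stays below 0, while *Ada* and *Cd38* lie on both sides of 0.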

How the data were processed

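Expression had been measured in 5 WT and 5 Siah2 KO tumors, grouped by the sample labels. The deposited signal is a normalized count per probe, which the authors had made in nSolver by scaling each tumor to 20 reference genes (their geometric mean). A background constant of unknown size and a floor are visible in it, as all values under 150 lay within 0.1 of a whole step of the tumor's factor. The factors tended to be larger for the Siah2 KO group, where the smallest was 1.03 (tumor 6) and the largest 1.60 (tumor 2). Among WT tumors only tumor 5, at 1.32, exceeded 0.974, and the smallest was 0.918 (tumor 4). Sums before scaling overlapped, with 443454 to 578705 counts for WT against 382860 to 581637 for Siah2 KO. Normalized sums averaged 546264 (WT) and 660314 (Siah2 KO). Why the factors differed was not tested. At the floor lay 39 to 84 of 770 probes per tumor. Depth before background subtraction is unknown, so no count model was used. No genome build is named for the panel.

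Log2(value + 1) of 770 probes was fitted with limma 3.58.1 (R 4.3.3; lmFit, eBayes), and p-values were adjusted by Benjamini-Hochberg over all probes. The fit was tested on simulated data. Single values and ratios were compared by two-sided exact permutation over 252 divisions of the tumors. The 8 leukocyte genes were *Ptprc*, *Cd53*, *Cd37*, *Cd48*, *Lcp1*, *Itgb2*, *Spn* and *Selplg*. Genes named were the members, the linked lists and the 3 genes most like each member; cell type lists are given by counts and single examples. Of the dendritic cell genes, not mentioned above, 2 of 7 were higher and none lower. Members and lists were chosen with earlier results of these data known. *Adora2a* has no entry in the RefSeq promoter table used. The series' design text names other cells (Yumm1.5) and mice of another genotype (Rnf5), whereas the sample labels and the paper name YUMMER1.7 and Siah2, which were followed; the panel can check neither genotype.

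Alternatives were other scalings (median, quantile, positive controls, 10 stable reference genes), a filter, a floor, other pseudocounts, endogenous probes only, an intensity trend, the methods' t-test, a replicate block and leaving out each tumor.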

Additional observations from a re-analysis of the deposited data

How the results depend on the processing

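*Entpd1* kept its direction under every alternative and lost its call only with positive control scaling (0.79, adjusted p = 0.14), where 0 members were higher and 95 of all probes passed (60 higher, 35 lower) against 316. Quantile normalization gave 153 higher and 181 lower probes. *Dpp4* passed with median scaling (−0.64) and quantile normalization (−0.63), each making 1 member lower. *Ada* turned to −0.040 with median scaling and −0.14 with quantile normalization, and *Cd38* turned to −0.086 with the latter. Leaving out single tumors gave 0.23 to 0.42 for *Cd38*, 1 to 2 members higher, 0.51 to 0.81 for the *Entpd1* to *Nt5e* log2 ratio and −0.33 to 0.16 for the *Ada* to *Nt5e* log2 ratio. The highest of each came without Siah2 KO replicate 6 for *Cd38* and the members, and without Siah2 KO replicate 3 for both ratios. The causes were not tested.

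Relative to leukocyte genes, *Dpp4* passed under every alternative run. *Entpd1* missed with the replicate block (0.43, adjusted p = 0.064), and leaving out single tumors gave 0.35 to 0.45, with 0 to 1 members higher and 1 to 2 lower. The block left 0 members higher. *Ada* passed with a mean of at least 20 (−0.33), values under 20 raised to 20 (−0.33) and a pseudocount of 10 (−0.34), and leaving out single tumors gave −0.41 to −0.26. *Cd38* passed with the methods' t-test (−0.22). Members lower were then 2, 3, 2 and 2 in these 4 settings, where the 3 include *Adora2a*, which that floor holds at 20 in every tumor so that its value only mirrors the leukocyte median.

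Same-numbered tumors (2, 3, 5 and 6) had correlations of 0.035, 0.050, 0.17 and 0.35, so that the numbers were not taken to pair tumors. Each of the 4 Siah2 KO tumors correlated best with its own number, a hint from the data and not the design. With the replicate block *Entpd1* had 0.94 (adjusted p = 0.017) and *Adora2a* −0.018, as in the same 8 tumors without the block (−0.018), which was added after seeing the data. *Adora2a*, under 20 in every tumor, is otherwise not given with the filter or floor of 20. Low counts limit *Adora2a* most.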
